A study of Mus musculus with 235 samples.

Results

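The genes described here make, fold and inspect secreted proteins in the endoplasmic reticulum (ER). They are 41 genes named by symbol: 14 chaperones and folding enzymes, 3 stress sensors and transcription factors, 11 genes of the protein-conducting channel and signal peptidase, 6 of the oligosaccharyltransferase and 7 of ER-associated degradation. Of these, 40 had a probe set annotated with their symbol alone, out of 18147 genes with such a probe set. Sec61g had none and was not analysed here. For the 29 members with more than 1 such probe set, the brightest on average was taken. The used probe sets lay between the 51.7th and the 98.9th percentile of gene levels.

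RNA was taken from the left lobe of the liver in 31 inbred strains, from females 8 to 10 weeks of age. Each mouse received by gavage, once a day for 3 days, either isoniazid at 100 mg/kg in 111 analysed animals, or sterile water as vehicle in 124 animals. Isoniazid is an antibiotic against tuberculosis that can injure the liver. The last dose preceded tissue collection by 24 h. Each strain had 4 vehicle animals, and 22 strains had 4 isoniazid animals, 5 had 3 and 4 had 2, because animals that died were left out. The submitters coded 13 strains as showing isoniazid-induced steatosis (fat in the liver) and 18 as not, so the code belongs to a strain and not to a single animal. No genotype was altered, and an inbred strain is 1 genetic background.

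The arrays differed in a few general ways. Hepatocyte markers were bright, with a mean over 8 genes between 12.99 and 13.55 log2 in the vehicle groups. On 21 arrays (10 isoniazid, 11 vehicle, in 19 strains) the SD of the log2 values was 2.10 to 2.20, below the 2.23 to 2.35 of all others, and values without them stand beside the results they move most. The 3' minus 5' signal of the actin control, a sign of RNA integrity, changed by 0.00 ± 0.09 log2 (SD over 31 strains) between treatments. That of the pyruvate carboxylase control rose by 0.23 ± 0.20, in 27 strains. Of 12 macrophage markers 9 were lower under isoniazid and none higher (median -0.22). Of 10 plasma and B cell markers 2 were lower and none higher, with a group mean of 4.69 to 5.01 in vehicle and 4.64 to 5.09 in isoniazid livers. Of 8 pancreatic acinar markers 1 was higher (Cela1). Of 9 endothelial markers 2 were lower, and of 8 hepatocyte markers 1 was higher and 1 lower. The T and NK cell, neutrophil, stellate, bile duct, red cell and proliferating lists each had 1 marker lower and none higher. By the same rule, an adjusted p under 0.05, 9.85% of all genes were lower and 10.2% higher. Counts of 1 or 2 in such short lists cannot be told from these shares. The part of these shifts in the changes below was not tested, and in whole liver fewer cells of a type and less RNA per cell cannot be told apart.

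Secreted proteins enter the ER through the Sec61 channel. Signal peptidase removes their signal sequence, and the oligosaccharyltransferase attaches sugar chains to asparagine residues. Lumenal chaperones such as Hspa5 (BiP), disulfide isomerases and the lectins calnexin and calreticulin then fold them, and chains that fail are passed back to the cytosol for degradation. When unfolded protein accumulates, the sensors Ern1 (IRE1), Atf6 and PERK raise the transcription of many of these genes, in part through Xbp1. Hepatocytes secrete most plasma proteins and hold a large ER.

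The ER stress response element (ERSE: CCAAT and CCACG with 9 bases between them) is the classical promoter motif of this response, bound by ATF6 and XBP1 together with NF-Y. It was searched on both strands from 250 bases before to 50 bases after the gene start (RefSeq, GRCm38.p6). Of the 41 members 32 had such a window, and 9 of these (28.1%) held the motif, against 37 of all 27025 genes with a window (0.137%). Besides those printed, the carriers were Calr, Canx, Dnajc3 and Derl3. The related ERSE-II (ATTGG and CCACG with 1 base between them) was found in Herpud1, Dnajb11 and Krtcap2, and in 12 genes in all (0.0444%). The motif TGACGTGG (the XBP1 element) was in no member window, against 0.714% of genes, and TGATGCAA (the amino acid response element) was in that of Herpud1 only, against 1.03%. The windows below carry the motif in capitals, on the gene's strand, so that CGTGG before ATTGG is the same ERSE read from the other strand. They are shown because Hspa5, Creld2, Syvn1 and Hsp90b1 were among the members that varied most closely together, Pdia6 differed most between vehicle strains and Herpud1 was the member that fell.
Hspa5, chr2:34772010-34772058, plus strand, motif at -65 to -47 from the start: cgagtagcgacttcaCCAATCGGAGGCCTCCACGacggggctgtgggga
Creld2, chr15:88819505-88819553, plus strand, motif at -126 to -108 from the start: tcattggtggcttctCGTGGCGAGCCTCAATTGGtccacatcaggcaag
Syvn1, chr19:6046517-6046565, plus strand, motif at -44 to -26 from the start: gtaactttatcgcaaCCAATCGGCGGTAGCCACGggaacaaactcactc
Hsp90b1, chr10:86705623-86705671, minus strand, the first of its 2 motifs, at -212 to -194 from the start: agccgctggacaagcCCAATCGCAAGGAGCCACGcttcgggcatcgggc
Hsp90b1, chr10:86705518-86705566, minus strand, the second motif, at -107 to -89 from the start: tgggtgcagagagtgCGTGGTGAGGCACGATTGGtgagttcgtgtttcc
Pdia6, chr12:17266476-17266524, plus strand, motif at -98 to -80 from the start: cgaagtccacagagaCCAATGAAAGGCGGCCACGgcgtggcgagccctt
Herpud1, chr8:94386362-94386402, plus strand, ERSE-II, at -52 to -42 from the start: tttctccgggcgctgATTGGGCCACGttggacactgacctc

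The first comparison asked how isoniazid changed these genes on average over the strains, with the mean of each strain's isoniazid animals minus that of its vehicle animals as 1 value per strain. Most of the genes that build the entry route and its sugar-adding enzyme rose, as did the disulfide isomerases, while the stress sensors did not pass the test and Herpud1 fell. Of the 40 members 34 had a mean change above 0, as had 9188 of all 18147 genes. At an adjusted p under 0.05, 23 members were higher and 1 lower. Over all 18147 genes 10.2% were higher and 9.85% lower by the same rule, and with the dimmest genes left out (10888 genes) 16.6% and 16.1%. The median change was 0.15 log2 over the members and 0.00 over all genes. All changes are in log2 units of the deposited values, and those of the members were small, with a fold between means of 1.08 to 1.65 for the members that rose.

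**Figure D1:**
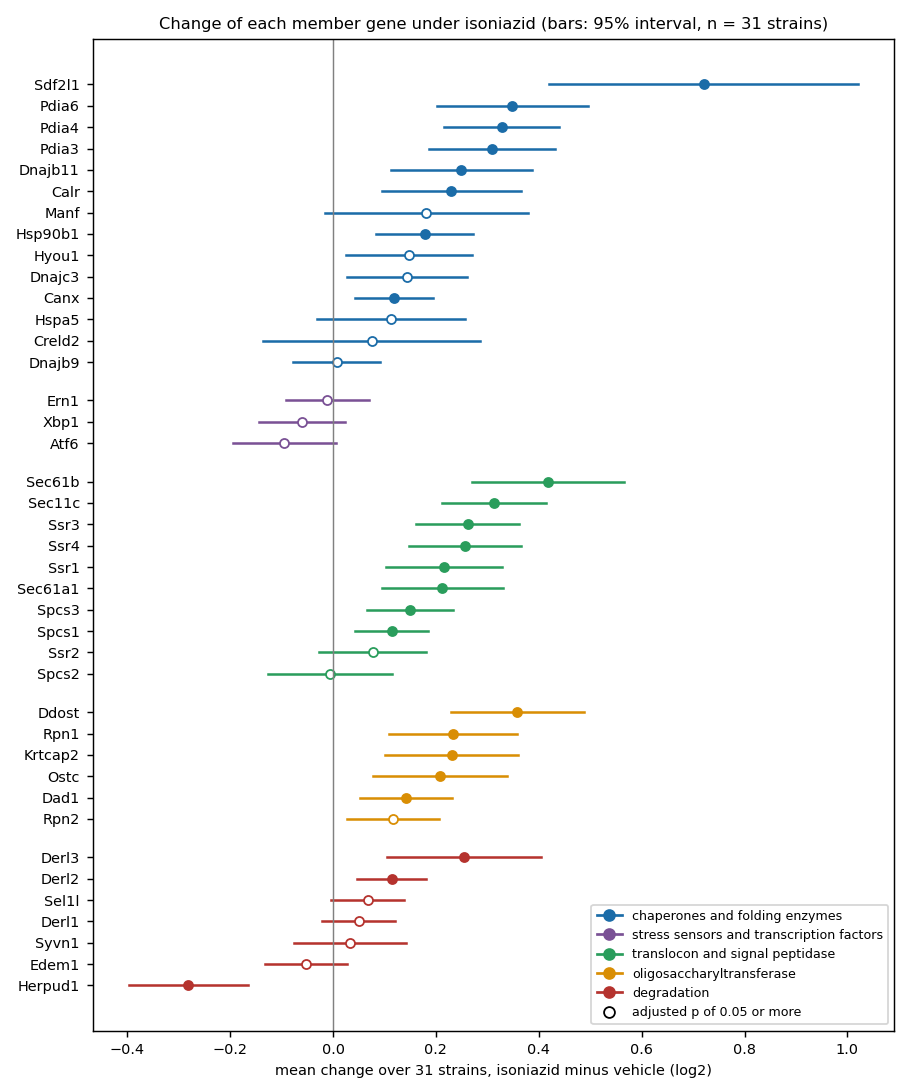
Mean change of each of the 40 members, isoniazid minus vehicle, in log2 units on the horizontal axis, with its 95% interval over 31 strains, coloured by role. Filled points passed an adjusted p under 0.05 (23 higher, 1 lower), and open points (16) did not. Sdf2l1 lies farthest right at 0.72 and Herpud1 farthest left at -0.28.

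Among the chaperones and folding enzymes 8 of 14 rose and none fell. Sdf2l1 (chr16:17130138-17132383, GRCm38.p6), a partner of the Hspa5 co-chaperone Dnajb11, rose most. Its vehicle strain means ran from 4.69 (C58/J) over a median of 6.35 to 7.74 (SEA/GnJ), and its isoniazid means from 5.32 over 6.90 to 8.31 (DBA/2J), so the groups overlapped widely. The change was 0.72 (95% interval 0.42 to 1.02, n = 31, adjusted p = 0.000407 by limma), and it was above 0 in 24 strains.

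The 3 protein disulfide isomerases rose together. Pdia6 changed by 0.35 ± 0.07 (SE), Pdia4 by 0.33 ± 0.05 and Pdia3 by 0.31 ± 0.06, and they were higher in 25, 27 and 24 strains. Dnajb11 rose by 0.25, calreticulin (Calr) by 0.23, Hsp90b1 (GRP94) by 0.18 and calnexin (Canx) by 0.12. The vehicle strain means of Hsp90b1 ran from 11.35 to 12.24.

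Hspa5 itself, the chaperone most often read as a marker of ER stress, did not pass. Its vehicle strain means ran from 10.09 over 10.98 to 11.72 and its isoniazid means from 10.26 over 11.00 to 12.56. The change was 0.11 (95% interval -0.03 to 0.26, adjusted p = 0.311), with 13 strains above 0 and a median strain change of -0.08. The mean and the median strain thus differed in sign. Creld2 and Manf, small secretory-pathway proteins induced by ER stress, did not pass either, with wide intervals: the mean changes were 0.08 (-0.13 to 0.29) and 0.18 (-0.02 to 0.38). Hyou1, an exchange factor for Hspa5, and the co-chaperone Dnajc3 had changes of 0.15 and 0.14 with adjusted p of 0.0802 and 0.0744. Dnajb9, a co-chaperone that restrains Ern1, was at 0.01 (-0.08 to 0.09).

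None of the 3 sensors and transcription factors passed. The changes were -0.06 for Xbp1 (interval -0.14 to 0.02), -0.09 for Atf6 (-0.19 to 0.01) and -0.01 for Ern1 (-0.09 to 0.07). Atf6 was above 0 in 13 strains and Xbp1 in 11. The probe sets measure total Xbp1 RNA and do not separate its spliced form, through which Ern1 acts.

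Of the 10 measured genes of the channel and signal peptidase 8 rose and none fell. Sec61b (chr4:47474661-47483233), the beta subunit of the channel, went from vehicle strain means of 8.25 to 9.50 (median 9.17) to isoniazid means of 8.48 to 10.49 (median 9.49). The change was 0.42 (0.27 to 0.57, adjusted p = 4.53e-05), above 0 in 27 strains. The pore subunit Sec61a1 rose by 0.21. The translocon-associated proteins Ssr3, Ssr4 and Ssr1 rose by 0.26, 0.26 and 0.22, whereas Ssr2 was at 0.08 (-0.03 to 0.18). Ssr3 was higher in 28 strains, and Sec11c, a catalytic subunit of signal peptidase, in 29, with a change of 0.31 ± 0.05 (SE, adjusted p = 1.24e-05). Of the signal peptidase partners, Spcs3 rose by 0.15 and Spcs1 by 0.11, and Spcs2 was at -0.01 (-0.13 to 0.11).

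All 6 oligosaccharyltransferase subunits had a mean change above 0 and 5 rose. Ddost (chr4:138304738-138312619), an essential subunit, went from vehicle means of 8.02 to 9.24 (median 8.72) to isoniazid means of 8.31 to 9.81 (median 8.98), a change of 0.36 (0.23 to 0.49, adjusted p = 6.68e-05) seen in 28 strains. Rpn1 and Krtcap2 rose by 0.23 each, Ostc, which links the enzyme to the channel, by 0.21 and Dad1 by 0.14. Rpn2 was at 0.12 (0.03 to 0.21) with an adjusted p of 0.0555, just outside the threshold.

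The degradation genes moved in both directions. Herpud1 (chr8:94386429-94395371), a membrane protein of the degradation complex that is strongly induced by ER stress and by amino acid shortage, fell. Its vehicle strain means ran from 10.56 over 11.48 to 12.19 (PWK/PhJ) and its isoniazid means from 10.55 over 11.09 to 11.67. The change was -0.28 (-0.40 to -0.17, adjusted p = 0.00034), with 25 strains below 0, and its other probe set gave -0.29. Derl3 rose by 0.25 and Derl2 by 0.11. The ubiquitin ligase Syvn1 (0.03), its partner Sel1l (0.07), Derl1 (0.05) and the mannosidase-like Edem1 (-0.05) did not pass. Derl3 had low vehicle means of 4.71 to 5.69, a range where the array method compresses differences.

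Agreement in sign over strains was common for few genes on the array. At least 25 of 31 strains were above 0 for 9 members, among 4.71% of all genes, and below 0 for Herpud1, among 3.99%. The 9 were Pdia4, Pdia6, Sec61b, Ssr3, Ssr4, Spcs3, Sec11c, Ddost and Derl2. Within each of the 10 scan dates, taken as isoniazid minus vehicle after each strain's level was subtracted, 18 of the 23 members that rose were above 0 on every date and the other 5 on 9 dates. Herpud1 was below 0 on all 10 dates.

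The value depended on the probe set for some members. With all probe sets of a gene averaged in place of the brightest one, Ssr4 was at 0.09, Pdia4 at 0.18, Pdia3 at 0.19, Pdia6 at 0.21, Sec11c at 0.18, Rpn1 at 0.15, Sec61a1 at 0.14 and Ostc at 0.13, all still past the threshold. Derl2 (0.04) and Spcs1 (0.06) were no longer past it, Ssr1 (0.16) was likewise lost, Derl1 (0.17), Sel1l (0.13) and Hyou1 (0.14) then passed, and Edem1 turned from -0.05 to 0.11 (adjusted p = 0.0115). The second Edem1 probe set changed by 0.28 and was higher in 30 strains. For Edem1 the 2 probe sets thus disagreed in direction. Dnajc3 was at 0.01 with its probe sets averaged, and 3 of its other probe sets had a mean change below 0. The other Atf6 probe sets changed by -0.03 and 0.25, the latter higher in 23 strains. Those of Xbp1 were all below 0, down to -0.14.

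Genes of the same pathway outside the 41 were counted from 5 lists, to be read against the 10.2% of all genes called higher and 9.85% called lower (16.6% and 16.1% without the dimmest). No list was tested as a set or against another. Of 30 other folding enzymes 9 rose and none fell. P4hb, the archetypal disulfide isomerase, rose by 0.40 in all 31 strains, the proline isomerase Ppib by 0.38, the cargo receptor Lman1 by 0.26 and Pdia5 by 0.19. Of 26 other translocation genes 8 rose and none fell. Examples are Tram1, a partner of the channel (0.19), Get4 (0.18) and Bag6 (0.13), which handle tail-anchored proteins, and Emc3 of the membrane insertion complex (0.14).

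Of 28 other N-glycosylation genes 14 rose and 1 fell. The mannosyltransferase Alg3 rose by 0.33, Dhdds, which makes the dolichol carrier, by 0.25, and the oligosaccharyltransferase subunits Tusc3 and Magt1 by 0.22 and 0.18. Of 28 other degradation genes 6 rose and 2 fell. The ATPase Vcp rose by 0.22 and its cofactors Ufd1 and Nploc4 by 0.20 and 0.17, while the mannosidase Man1a fell by 0.22. Of 22 genes of the PERK branch and integrated stress response 3 rose and 6 fell. Chac1, a target of Atf4, fell by 0.47, Vldlr by 0.37 and Atf4 itself by 0.16, and Creb3l3, a hepatocyte ER-bound transcription factor, rose by 0.11. The medians of the 5 lists were 0.10, 0.05, 0.10, 0.03 and -0.06, beside 0.00 over all genes.

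The second comparison asked how far the response differed between strains. The size of the response varied from strain to strain for most members: the strain by treatment interaction passed in 34 of 40 members (all 6 oligosaccharyltransferase subunits, all 10 channel and signal peptidase genes, 13 of 14 chaperones, 4 of 7 degradation genes and Xbp1), against 17% of all genes. The largest F values, each over 30 differences between strains, were 7.52 for Krtcap2, 7.31 for Ddost, 6.39 for Ssr4 and 6.31 for Sec61a1. Dnajb9, Atf6, Ern1, Sel1l, Derl1 and Derl3 did not pass. In 11 other settings Atf6 and Derl3 passed in 4 each, Dnajb9 in 2, Sel1l and Derl1 in 1 each, and Ern1 in none. With each animal number left out 26 to 31 members passed. Xbp1 lost the call in 6 of 11 other settings, Hyou1 in 5 and Edem1 in 4, and Xbp1 and Edem1 did so without the arrays of narrow spread, where 34 members passed in all.

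Within single strains, 135 of 1240 pairs of member and strain (10.9%) were called higher and 5 lower. These tests used a spread per gene shared by all 62 groups of strain and treatment, and not the strain's own spread. Over all genes and strains the shares were 1.27% and 0.723%. At least 1 member was called higher in 10 strains, and 4 strains held 95 of the 135 calls (70.4%). In 19 strains no member was called either way. With each animal number left out the higher calls numbered 93 to 110. The 5 lower calls were Herpud1 in NZW/LacJ, PWK/PhJ, LP/J and NOR/LtJ, and Spcs2 in NOD/LtJ.

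**Figure D2:**
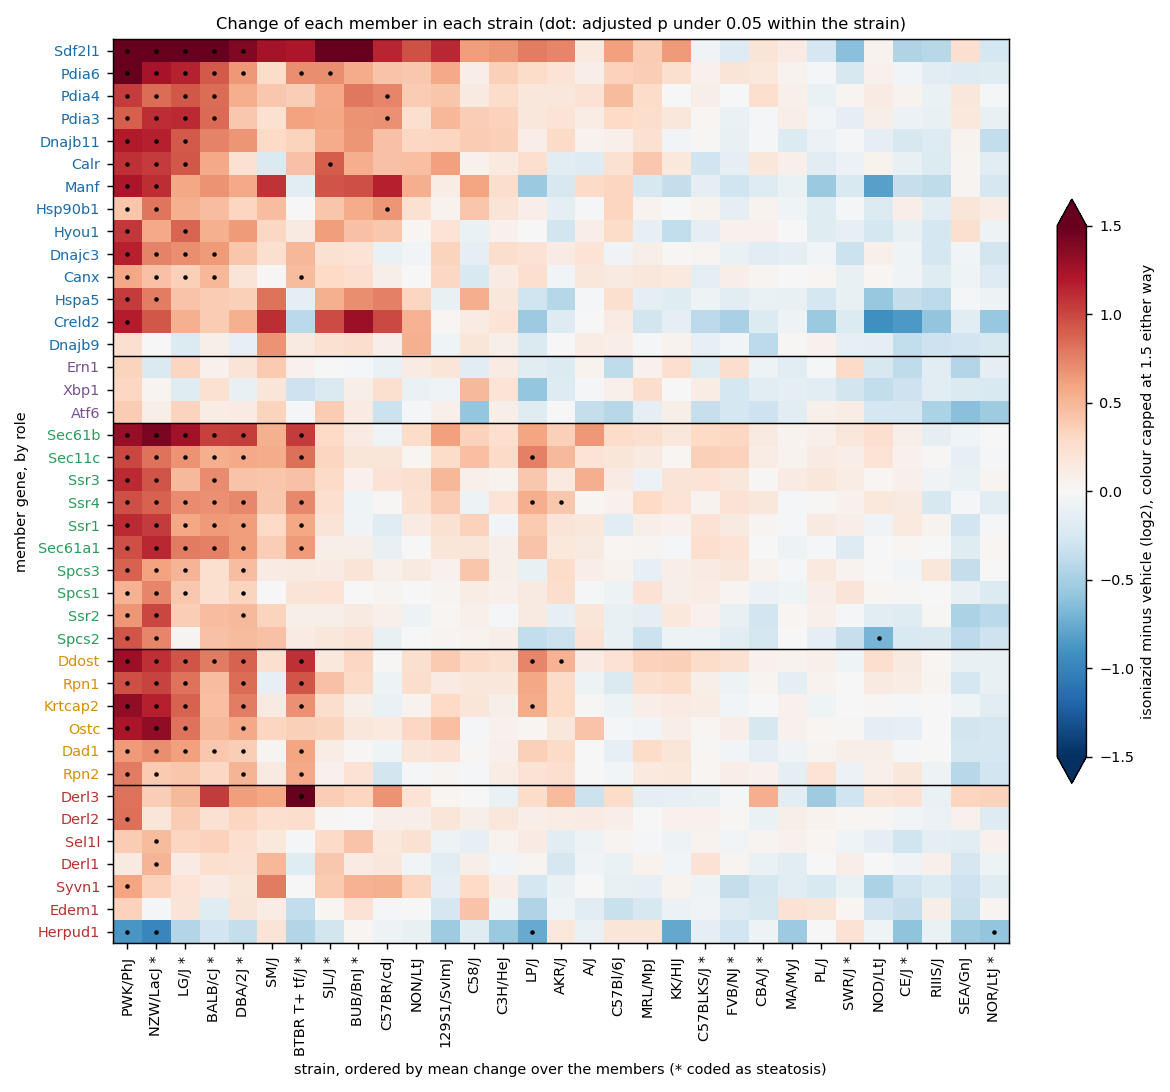
Change of each of the 40 members (rows, coloured and separated by role) in each of the 31 strains (columns, ordered by their mean over the members), isoniazid minus vehicle in log2 units, with colours capped at 1.5 either way. Dots mark the 140 pairs past an adjusted p under 0.05 within the strain, 95 of them higher in the 4 leftmost strains. The Herpud1 row at the bottom is blue where most other rows are red.

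PWK/PhJ, a strain derived from wild mice and coded as without steatosis, had the largest mean over the members, 0.84, with 39 of 40 above 0 and 31 called higher (10.4% of all genes in that strain). NZW/LacJ, a steatosis strain, followed with 0.74 and 29 members called higher (9.33% of its genes). LG/J had 0.59 and 21 (2.25%), BALB/cJ 0.50 and 14 (0.926%), and DBA/2J 0.45 and 16 (4.57%). At the other end were NOR/LtJ (-0.16), SEA/GnJ (-0.14), RIIIS/J (-0.14), CE/J (-0.12) and NOD/LtJ (-0.10). Of the members, 19 had their highest change in PWK/PhJ and 11 in NZW/LacJ. Without the narrow arrays the top of the order was the same, at 0.83 for PWK/PhJ and 0.73 for NZW/LacJ, but the bottom was not: SEA/GnJ rose to 0.01 and NOR/LtJ to -0.05, while SWR/J fell from -0.05 to -0.22 with only 3 members above 0.

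The animals of the 4 strains with the 2 highest and the 2 lowest means show what lies behind these values. In NZW/LacJ the 4 vehicle animals had Sdf2l1 values of 4.36, 4.88, 5.14 and 5.42, and the 4 isoniazid animals 7.95, 7.98, 8.08 and 8.09. The isoniazid animals were close together and far above all vehicle animals, and the strain's change of 3.07 is 8.42-fold. In PWK/PhJ the vehicle values were 5.37, 5.87, 6.02 and 6.43, and the isoniazid values 6.13, 6.75, 9.07 and 9.10. Here the isoniazid animals split, with a pair near or within the vehicle range and a pair far above it. The SD of the isoniazid animals was 1.55 in PWK/PhJ and 0.07 in NZW/LacJ. The calls within strains used the same shared spread for both, so they do not reflect the split in PWK/PhJ. In NOR/LtJ (vehicle 5.94 to 7.03, isoniazid 5.61 to 6.65) and SEA/GnJ (vehicle 6.72 to 8.79, isoniazid 7.62 and 8.34) the treatments overlapped.

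Sec61b also rose in NZW/LacJ and PWK/PhJ with a smaller range, here without overlap in PWK/PhJ. Its values in NZW/LacJ were 8.79, 9.07, 9.08 and 9.36 under vehicle and 10.38, 10.48, 10.50 and 10.62 under isoniazid. In PWK/PhJ they were 8.46, 8.89, 8.90 and 9.22 and then 9.39, 9.88, 10.59 and 10.84. Krtcap2, a small oligosaccharyltransferase subunit, was at 9.61 to 9.88 and 10.86 to 11.02 in NZW/LacJ, and at 9.06 to 9.70 and 9.93 to 11.28 in PWK/PhJ, without overlap in either. In NOR/LtJ and SEA/GnJ both genes overlapped between treatments.

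Pdia6 stood at 8.04, 8.17, 8.19 and 8.20 in the vehicle animals of PWK/PhJ and at 9.11, 9.23, 10.14 and 10.31 in the isoniazid animals. In NZW/LacJ it went from 7.94 to 8.22 under vehicle to 9.22 to 9.38 under isoniazid. The vehicle animals of SEA/GnJ (9.07 to 9.89) were as high as these treated animals. Herpud1 ran the other way in NZW/LacJ, from 11.29, 11.59, 11.65 and 11.72 to 10.11, 10.65, 10.76 and 10.84. In PWK/PhJ 3 isoniazid animals (10.85, 11.03 and 11.14) lay below the vehicle range of 11.94 to 12.45 and 1 (12.24) inside it. In NOR/LtJ the vehicle values of 11.44 to 11.86 and isoniazid values of 10.68 to 11.33 did not overlap. All isoniazid animals lay below all vehicle animals for 5.89% of genes in NZW/LacJ and 6.6% in NOR/LtJ. Atf6 overlapped in PWK/PhJ, NZW/LacJ, NOR/LtJ and SEA/GnJ.

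**Figure D3:**
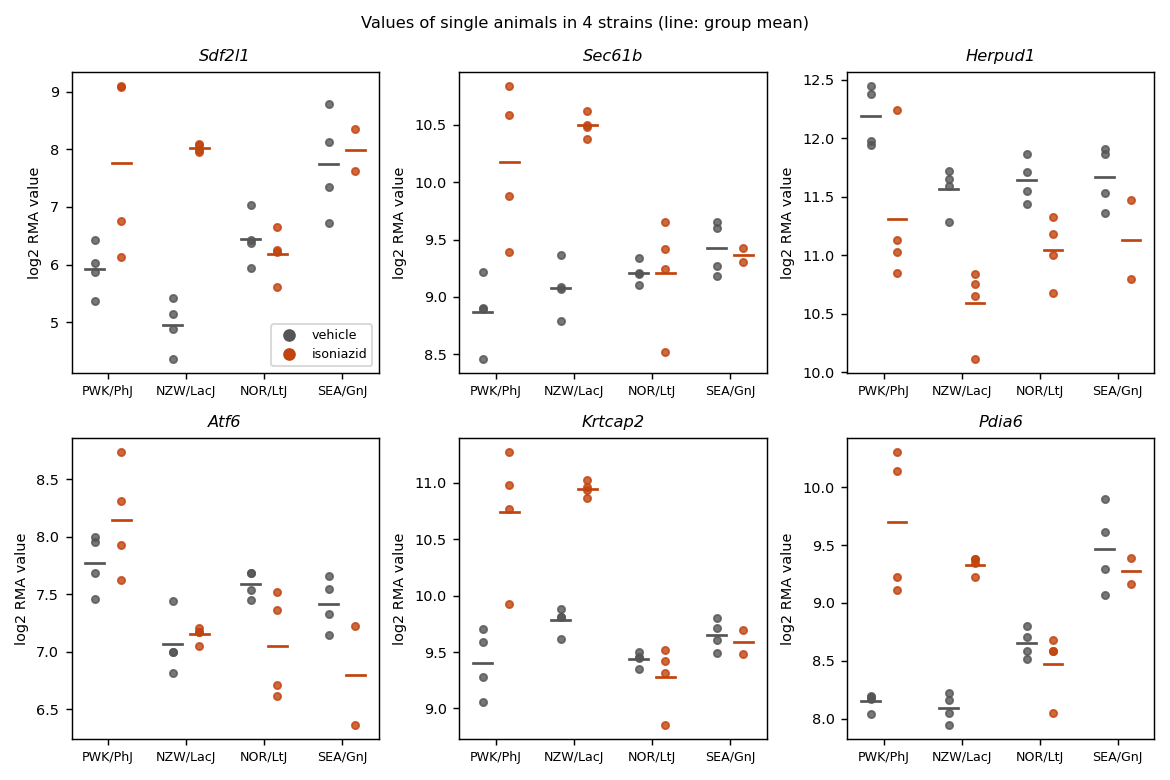
Deposited log2 values of single vehicle (grey) and isoniazid (orange) animals for 6 members in 4 strains, with group means as lines. The vertical axes do not start at 0 and differ between panels. In NZW/LacJ the groups are apart in all panels but Atf6, and the PWK/PhJ isoniazid animals spread from 6.13 to 9.10 for Sdf2l1.

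The split within PWK/PhJ also showed in the mean over the whole set, but single members did not all follow it. The 4 isoniazid values of Krtcap2, for example, were 9.93, 10.77, 10.98 and 11.28. When each animal's values were set against its strain's vehicle means and averaged over the 40 members, the 4 PWK/PhJ isoniazid animals stood at 0.30, 0.51, 1.24 and 1.30. Of the members 22, 27, 37 and 35 were above the highest vehicle animal in these 4, in that order, while 22.5%, 25.6%, 18.8% and 25.4% of all genes were. None of these 4 arrays was of narrow spread. A pair of these animals shared a scan date and the others were scanned on different dates, and the part of scan date in the split was not tested. The 4 NZW/LacJ isoniazid animals lay between 0.66 and 0.80. Every isoniazid animal was above every vehicle animal for 29 members in NZW/LacJ and for 18 in PWK/PhJ, which holds for 11.9% and 5.57% of all genes there.

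In BALB/cJ the isoniazid animals ran from 0.23 to 0.97 and in DBA/2J from 0.08 to 0.79, with 1 DBA/2J vehicle animal at 0.45 and the other 3 at or below -0.13. In NOR/LtJ the lowest isoniazid animal was at -0.44 on an array of narrow spread, with 34 members below the vehicle range, where 43.8% of all genes also lay and the mean over all genes was -0.08. The other NOR/LtJ animals lay between -0.09 and -0.05. SM/J, with 2 isoniazid animals, had both well above vehicle (0.32 and 0.41), and 26 members without overlap, where 12.3% of all genes also showed none. No SM/J change passed the test for a member.

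**Figure D4:**
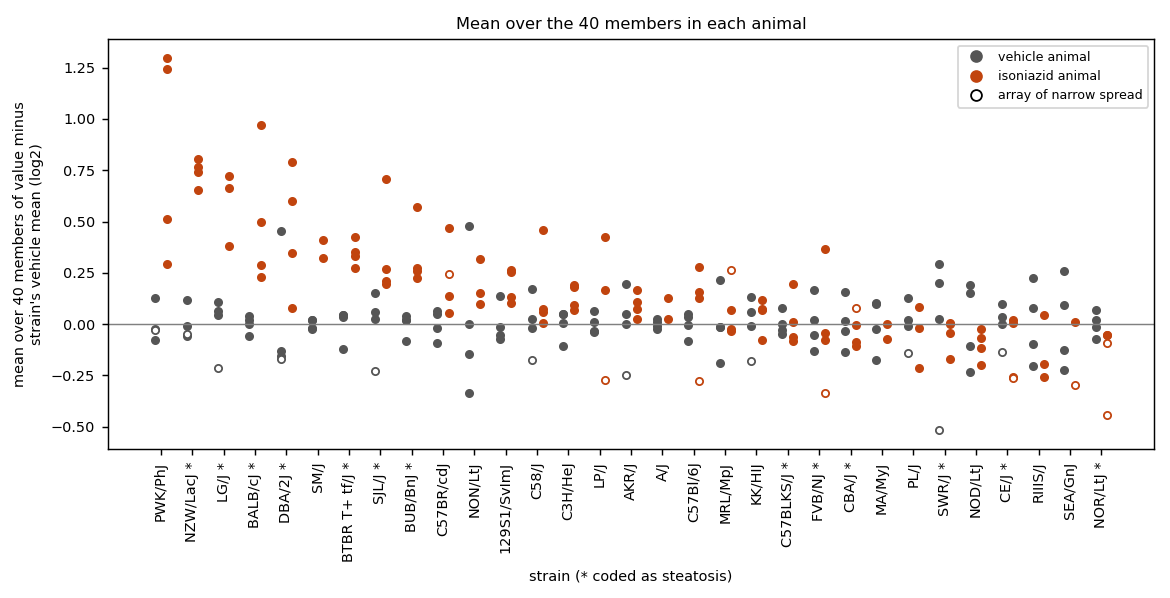
Mean over the 40 members of each animal's value minus its strain's vehicle mean (log2), for vehicle (grey) and isoniazid (orange) animals of the 31 strains, ordered by mean change. Open points are arrays of narrow spread. The 4 PWK/PhJ isoniazid animals lie at 0.30, 0.51, 1.24 and 1.30, and the 4 NZW/LacJ animals between 0.66 and 0.80.

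The third comparison set the 13 steatosis strains beside the 18 others. In the steatosis strains 19 members were higher and 1 lower (5.75% and 4.47% of all genes), and in the others 6 and 1 (4.16% and 4.13%). In the strains with 4 isoniazid animals alone the higher counts were 11 and 3, and with animals as replicates 29 and 22. Status belongs to the strain, so the latter counts overstate the replication. The shares of all genes in these settings are not given here. The 6, all of them also called in the steatosis strains, were Pdia3, Pdia4, Sec61b, Ssr3, Sec11c and Ddost, and the 1 lower was Herpud1 in both groups. The count in the strains without steatosis was 10 with RIIIS/J left out and 4 with PWK/PhJ left out. Herpud1 no longer passed in the steatosis strains without NZW/LacJ, nor in the others without, for example, 129S1/SvImJ or PWK/PhJ. In the steatosis strains 13 members were higher without NZW/LacJ, and 13 without LG/J.

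The groups' difference itself did not pass for any member or any gene (0 of 18147 by limma with strains as replicates). Unadjusted p under 0.05 was reached by 1 member (Derl3) and by 492 genes. The difference was above 0 for 35 members, with a median of 0.12, and for 9509 of all 18147 genes, with a median of 0.00. It was 0.31 for Sdf2l1 (95% interval -0.30 to 0.92), 0.24 for Sec61b (-0.05 to 0.53), 0.24 for Rpn1 (-0.00 to 0.48), 0.22 for Sec61a1 (-0.01 to 0.45), 0.29 for Derl3 (0.00 to 0.58) and 0.09 for Hspa5 (-0.21 to 0.39). Differences of that size above 0 were therefore not resolved. For Sec61b, Rpn1, Sec61a1 and Derl3 the intervals, which are not adjusted for the number of genes, reached little or not at all below 0. By strain, the mean over the members averaged 0.23 with an SD of 0.30 where steatosis was coded (n = 13), and 0.12 with an SD of 0.22 elsewhere (n = 18). Its range was -0.16 to 0.74 in the first and -0.14 to 0.84 in the second. Between the vehicle groups of both kinds of strain, no member passed by limma (0 of 40 at an unadjusted p under 0.05, against 737 of all genes, none of which passed after adjustment). The vehicle difference was above 0, that is higher in steatosis strains, for 32 of 40 members and for 8762 of all 18147 genes. The 32 include all 14 chaperones and all 3 sensors. The vehicle levels of the chaperones vary together over strains (median Pearson r 0.72), so their signs are not separate observations.

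Vehicle levels differed between strains for nearly all members, 38 of 40, against 53.4% of all genes. Spcs1 and Derl3 did not pass. The largest F was that of Pdia6 (13.80), with strain means from 7.54 in C58/J over 8.62 to 9.89 in RIIIS/J, a 5.08-fold range. Sec11c (F of 11.54) ran from 6.47 in C58/J over 7.52 to 8.18 in MRL/MpJ, and Manf from 7.72 over 9.26 to 10.27. C58/J had the lowest vehicle level for 22 of the 40 members, and SEA/GnJ the highest for 13. Without the narrow arrays, of which C58/J vehicle had 1, these counts were 20 and 10, and SWR/J had the highest level for 12, up from 1. A sequence variant under the probes can also lower a strain's values, and its part in these levels was not tested.

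The last comparison was among the members themselves. Over the 31 strains the changes of 742 of the 780 pairs of members correlated above 0, with a median Pearson r of 0.61. The vehicle levels of the same strains gave a median of 0.36. The points share their arrays and, for changes, their vehicle animals, so these values describe the strains and are not tests. Within the oligosaccharyltransferase the median r was 0.88, within channel and signal peptidase 0.81 and within the chaperones 0.78. Between oligosaccharyltransferase and channel genes it was 0.83. It was 0.36 within the degradation genes and 0.21 within the 3 sensors and transcription factors.

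Hspa5 varied most closely with Manf (r = 0.97), Creld2 (0.94), Syvn1 (0.91) and Hsp90b1 (0.90). Of these 5 genes, 4 have an ERSE in their window as printed above, and Manf had no window. The other carriers varied less closely with Hspa5: Pdia6 at 0.67, Calr at 0.61, Dnajc3 at 0.53, Canx at 0.43 and Derl3 at 0.38. Members with a window and no ERSE ran from -0.12 (Herpud1) to 0.80 (Pdia4). A link between motif and correlation was not tested. Sec61b varied most closely with Sec61a1 (0.95), and Krtcap2 with Ddost (0.94). Between both sets the relation was looser for most genes: Hspa5 had r = 0.45 with Sec61b, 0.37 with Ddost and 0.29 with Dad1. Its r ran from 0.27 (Rpn2) to 0.62 (Ostc) over the oligosaccharyltransferase genes. Over the channel and signal peptidase genes it ran from 0.37 (Ssr4) to 0.79 (Spcs2). Pdia6 and Dnajc3, although chaperones, stood closer to Sec61b (0.84 and 0.90) than to Hspa5 (0.67 and 0.53). So did Canx (0.78 against 0.43) and, by little, Sdf2l1 (0.77 against 0.72), Pdia3 (0.74 against 0.72) and Calr (0.63 against 0.61). The remaining chaperones stood closer to Hspa5. Herpud1 correlated below 0 with most other members, down to -0.54 with Krtcap2.

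**Figure D5:**
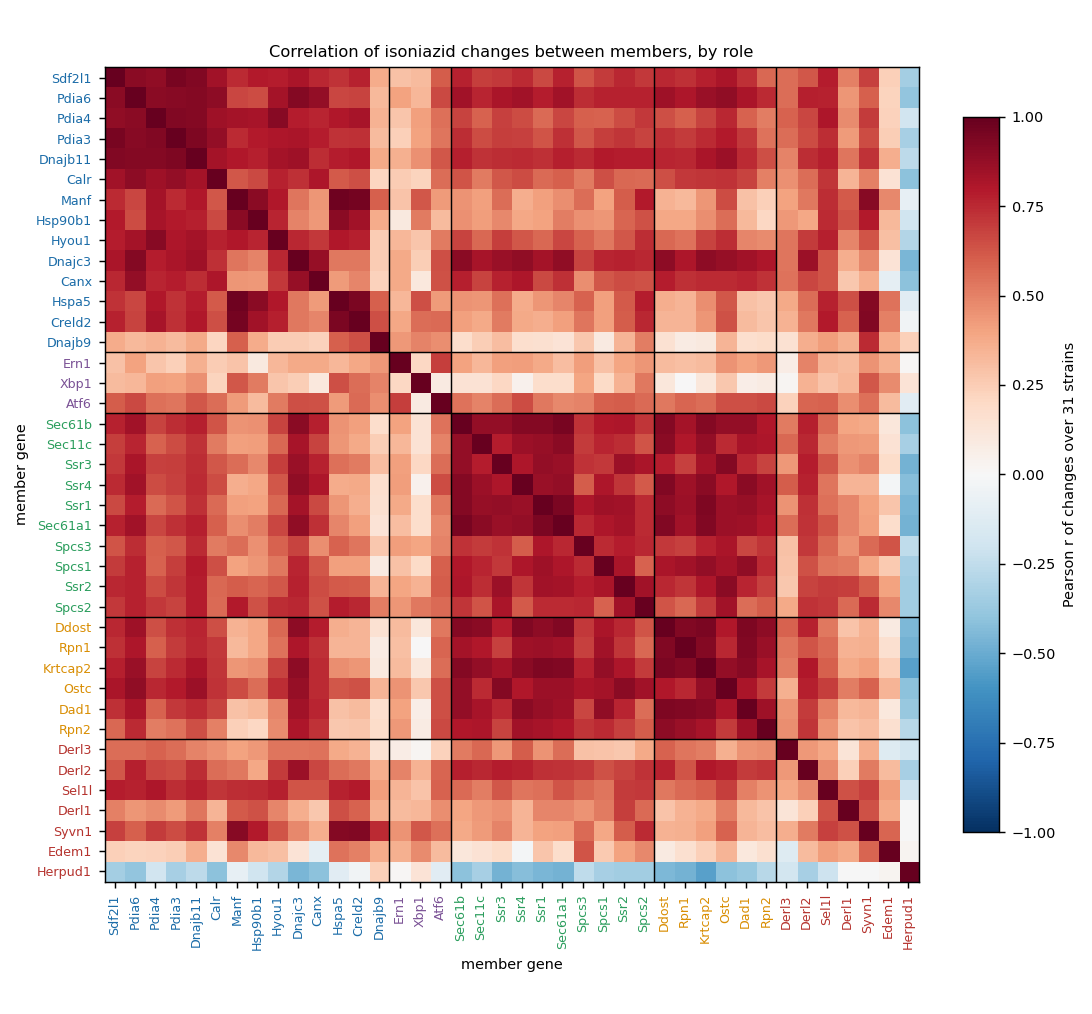
Pearson r of the isoniazid changes over 31 strains for every pair of the 40 members, ordered and separated by role, from blue (-1) to red (1). Channel and oligosaccharyltransferase genes form a red block (median r 0.83 between them), Hspa5, Manf, Creld2, Syvn1 and Hsp90b1 are red with each other (0.79 or higher), and Herpud1 is blue with most.

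In some single strains the mean changes of these sets lay apart from each other. This grouping of 5 genes was made after their correlations were seen and is a description only. In C57BR/cdJ the mean change of Hspa5, Manf, Creld2, Syvn1 and Hsp90b1 was 0.82 while that of the oligosaccharyltransferase genes was -0.06 (0.71 and -0.02 without its narrow array). BUB/BnJ had 0.80 and 0.18, SM/J 0.85 and 0.13, and SJL/J 0.65 and 0.23 (0.62 and 0.12 without its narrow array). No member was called higher in BUB/BnJ or SM/J, and of the 5 genes only Hsp90b1 was called in C57BR/cdJ. In BTBR T+ tf/J the order was turned, with -0.14 for the 5 and 0.71 for the oligosaccharyltransferase. PWK/PhJ (0.89 and 1.04) and NZW/LacJ (0.79 and 0.95) were high in both (1.08 and 0.90, and 0.83 and 0.87, without their narrow arrays). In LP/J the values were -0.31 and 0.41, and 0.04 and 0.57 without its narrow array. Over all strains both means were above 0 in 12, that of the 5 genes alone in 2, that of the oligosaccharyltransferase alone in 12 and neither in 5. Without narrow arrays these counts were 13, 3, 11 and 4.

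By promoter motif the changes overlapped, and the difference was not tested. The 9 measured members with the motif had a median change of 0.14 (0.03 to 0.35, 5 higher), and the 22 measured members with a window and no ERSE 0.18 (-0.28 to 0.72, 14 higher). The latter include the 3 carriers of ERSE-II (Herpud1 at -0.28, Krtcap2 at 0.23 and Dnajb11 at 0.25), and the 19 with neither motif had a median of 0.14 (-0.06 to 0.72, 12 higher).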

How the data were processed

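The authors deposited log2 values for each probe set. Per the submitters' processing notes they came from RMA and Affymetrix Power Tools, with no version given in the sources used here. RMA equalises array distributions, so a shift common to all genes is largely removed, and it compresses low values. The deposited arrays were not fully equal, with an SD of 2.10 to 2.35. The mean change over all genes was -0.04 in SEA/GnJ and NOR/LtJ and 0.04 in SWR/J. Array medians ran from 3.96 to 4.21, and the number of arrays limits the precision. Of 44721 probe sets 34728 had 1 symbol, 872 several and 9061 none listed, and 60 were controls. Through Entrez numbers 34525 were matched to the RefSeq table of GRCm38.p6, and 0 symbols changed. The brightest probe set of each gene was used, with no filter on dim genes.

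The members, the gene lists and the rule for named genes were chosen with earlier results of these data known. By that rule all members are named. Each pathway list gives up to 4 called genes with the largest absolute t. Single animals are shown for the 2 members with the highest mean change, the 2 with the lowest (Herpud1, and Atf6, which did not pass), and those with the largest interaction and vehicle F, in the 4 strains with extreme means.

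For each strain the vehicle mean was subtracted from the isoniazid mean, and the 31 differences were tested with limma 3.58.1 (lmFit, eBayes) in R 4.3.3, over all strains, by steatosis status and for the difference by status, as were the vehicle means. Tests within strains and F tests used 62 groups with animals as replicates (173 residual degrees of freedom) and a spread per gene shared by all groups. P-values are two-sided, adjusted by Benjamini-Hochberg over 18147 genes, with 0.05 as threshold and 95% intervals. The fit was tested on simulated data. Promoter windows are from RefSeq.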

Additional observations from a re-analysis of the deposited data

Results flagged for a closer look

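The change under isoniazid differed between strains, by the interaction test of strain and treatment, in 34 members. The F values were 7.52 for Krtcap2, 7.31 for Ddost, 6.39 for Ssr4, 6.31 for Sec61a1, 5.52 for Pdia6, 5.06 for Sec61b, 4.63 for Dad1, 4.62 for Ssr1, 4.31 for Ostc, 4.06 for Canx and 4.03 for Rpn1. They were 3.99 for Sdf2l1, 3.80 for Dnajc3, 3.76 for Rpn2, 3.41 for Spcs1, 3.40 for Ssr3, 3.38 for Pdia3, 3.33 for Calr, 3.26 for Ssr2, 3.25 for Spcs2, 3.04 for Sec11c and 3.03 for Dnajb11. The lowest were 2.98 for Hspa5, 2.90 for Hsp90b1, 2.82 for Herpud1, 2.47 for Spcs3, 2.45 for Manf, 2.42 for Derl2, 2.36 for Pdia4, 2.30 for Creld2, 2.23 for Edem1, 2.09 for Syvn1, 1.90 for Hyou1 and 1.84 for Xbp1.

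In 1 of 42 groups of 4 animals a value stood apart from the other 3 by Dixon's test: the lowest NOR/LtJ isoniazid animal for Pdia6, at 8.05 against 8.58 to 8.68. A share of 5% of groups would stand apart by chance.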

How the results depend on the processing

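For the 23 members that rose over the strains, the count was 20 to 25 when each strain or animal number was left out, and 22 to 29 under the other settings. Status belongs to the strain, so counts by status with animals as replicates overstate the replication. Animals as replicates raised the counts: 2 lower over all strains, 29 higher in steatosis strains, 22 higher and 2 lower in the others, 1 higher in the difference by status and 4 higher in vehicle level by status. With the animal number as replicate block on top, which does not pair the animals (23 of 111 same-numbered pairs had deviations correlated above 0.1, median -0.02), these were 1, 29 (with 2 lower), 22 and 1, 1 and 4, with 28 higher over all strains, against 29 without the block. In the 22 strains with 4 isoniazid animals, 11 members were higher in steatosis strains, and 3 higher and 0 lower in the others. Lower calls within strains were 3 with centred arrays, 2 with the mean of probe sets and 3 with the block, and 3 to 7 with an animal number left out. Higher calls ran from 13 to 24 in steatosis strains and from 4 to 10 in the others with a strain or animal number left out, and lower calls from 0 to 1 in both. Small values that did not pass in the main setting changed sign. With probe sets averaged Atf6 was 0.043, Ern1 0.020, Spcs2 0.061 and Edem1 0.11, the last of these then past the threshold. Spcs2 was 0.0052 without narrow arrays and 0.011 in strains with 4 isoniazid animals, where Dnajb9 was -0.0071, and with scan date as a term Dnajb9 was -3.13e-05. With a strain or animal number left out, Dnajb9 ran from -0.015 to 0.031, Ern1 from -0.024 to 0.0068 and Spcs2 from -0.038 to 0.017. The cause was not tested.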
